A study of Mus musculus with 2 samples.

Results

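The genes described here are 6 members of the Slc2a family, which encodes the GLUT carriers of hexose sugars: Slc2a5, Slc2a1, Slc2a3, Slc2a6, Slc2a8 and Slc2a9. They were taken by symbol from the 32285 genes of the deposited count tables, which list 12 Slc2a symbols in all. Their level was followed in each cell type of a mouse glioma by single-cell RNA sequencing. Cells of CT-2A, a glioma line of the mouse, had been placed in the brain, and on day 14 the immune cells of the tumour were isolated by CD45 beads. The first library is labelled Glut5 KO, in which Slc2a5 itself is the targeted gene, and the second wildtype. The labels speak of a mouse in the singular for each, while both libraries held male and female cells. Both carried the same tumour line, and 16000 cells were loaded for each. The sample labels say KO where the design text says knockdown, and the labels are followed here. Which exons were deleted, and the number, sex and age of the animals, were not stated in the sources used here. By their Y-linked and Xist transcripts, 2646 cells were male and 3473 female in Glut5 KO, and 3620 male and 2891 female in wildtype.

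Members of the GLUT family are membrane carriers that let sugars pass down their gradient, each with its own substrates and place in the cell. GLUT5, the product of Slc2a5, carries fructose and is the member by which brain microglia are often recognised, while GLUT1 (Slc2a1) and GLUT3 (Slc2a3) carry glucose across the plasma membrane. GLUT6 (Slc2a6) and GLUT8 (Slc2a8) sit mostly on membranes inside the cell, and GLUT9 (Slc2a9) carries urate.

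Each genotype is a single library, so differences carry neither a replicate spread nor a p-value, and genotype and library batch cannot be told apart. Filtering left 12112 Glut5 KO cells with 96803335 unique molecular identifiers (UMIs, tags that count captured transcripts) and 11473 wildtype cells with 116089616. The medians were 6523.5 and 8682 UMIs per cell, and 188 barcodes occurred in both libraries. Cells were gated on marker panels, and the names of the types rest on these transcripts alone. Microglia-like cells numbered 1264 in Glut5 KO and 1550 in wildtype, and monocyte/macrophage-like cells 5408 and 5801. All 7 microglia markers and all 15 monocyte/macrophage markers were detected in both of these classes in both libraries. The gates use these markers, so their detection does not test the names. Levels are UMIs per 1e6 UMIs of the class (CPM), and the values in brackets are exact 95% bounds for counting error alone. Differences are log2 ratios of Glut5 KO over wildtype.

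The start regions of Slc2a5 and Slc2a1 are shown because these genes had the lowest and the highest ratio of the family in microglia-like cells. Both lie on chromosome 4, 31.0 Mb apart. Slc2a5 occupies chr4:150119283-150144169 on the plus strand of GRCm38, and Slc2a1 occupies chr4:119108711-119137983 on the same strand. The windows are the 250 bases before the RefSeq start (GRCm38.p6), at chr4:150119094-150119343 and chr4:119108495-119108744. The gene spans are GENCODE's, whose starts lie inside these windows.
Slc2a5: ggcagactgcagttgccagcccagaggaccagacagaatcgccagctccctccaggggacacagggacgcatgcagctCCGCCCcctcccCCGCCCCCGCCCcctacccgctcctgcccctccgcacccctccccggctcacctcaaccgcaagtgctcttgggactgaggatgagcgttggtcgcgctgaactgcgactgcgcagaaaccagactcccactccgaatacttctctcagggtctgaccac
Slc2a1: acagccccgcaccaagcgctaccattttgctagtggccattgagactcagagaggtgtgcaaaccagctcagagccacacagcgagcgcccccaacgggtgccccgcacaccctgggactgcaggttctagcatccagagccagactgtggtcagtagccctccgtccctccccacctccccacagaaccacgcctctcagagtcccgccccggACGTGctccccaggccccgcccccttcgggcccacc
Capitals in the Slc2a5 window mark the GC box GGGCGG read on either strand, with 3 matches that do not overlap, a motif held by 32.7% of 32851 start windows of this length. The same box stands in lower case in the Slc2a1 window, 45 and 20 bases before the RefSeq start, and once in that of Slc2a6. Capitals in the Slc2a1 window mark ACGTG, the core of the site of hypoxia-inducible factors, read on either strand. It stood once, 36 bases before the RefSeq start and across the GENCODE start, and 16.6% of windows hold it. Windows were at hand for 5 of the 6 genes (not Slc2a3), and ACGTG was in no other of them. GAGGAA, the core bound by the myeloid factor PU.1 (23.3% of windows), and a letter form of the interferon-stimulated response element (2.98%) were in none of the 5. A match of letters is a description and not evidence of binding.

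Slc2a5 was a transcript of microglia-like cells in the wildtype library and was close to absent from the Glut5 KO library. Microglia-like cells had 0 Slc2a5 UMIs in Glut5 KO and 346 in wildtype, which is 0 CPM [0 to 0.332] against 21.1 CPM [18.9 to 23.4]. With a floor of 3 counts over the class, the level was at least 78.2-fold lower in Glut5 KO. Monocyte/macrophage-like cells had 0 UMIs in Glut5 KO and 16 in wildtype (0.257 CPM). Stricter gates, or taking out a free-RNA share of at most 20.8% of the wildtype UMIs, left 0 Slc2a5 UMIs of this class in both libraries. Stricter gates keep fewer cells, and the free-RNA share is an upper bound. With so few UMIs, neither step can show whether the difference holds. The only Slc2a5 UMI of the Glut5 KO library was in a cell with markers of more than 1 class. In this 5' assay a transcript that kept its first exons would still be counted.

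Within the wildtype library, microglia-like cells gave 90.1% of all 384 Slc2a5 UMIs and 14.1% of all UMIs. No other named class reached 1 CPM, and the interval of the next class, T cells (0.981 CPM from 2 UMIs), did not reach that of microglia-like cells. Cells that met several gates, which were left out of every class, had 1.10 CPM from 12 UMIs. The 13 monocyte/macrophage-like cells with a Slc2a5 UMI had a median of 6.49 microglia-panel UMIs per 10000, against 2.59 over their class. A UMI was seen in 258 of 1550 wildtype microglia-like cells (16.6%), of which 196 had 1, 42 had 2 and 20 had more. With each cell thinned to 1000 UMIs the share was 0 of 1202 cells in Glut5 KO, which allows up to 0.250% at 3 counts and 0.306% by the exact bound, and 2.81% [2.04 to 3.76] of 1531 cells in wildtype. Unthinned, migratory dendritic cells, taken as a type without the gene, had a UMI in 0 of 235 cells in Glut5 KO and 0 of 321 in wildtype, at medians of 6301 and 5996 UMIs. Wildtype monocyte/macrophage-like cells had one in 0.224% of 5801 cells.

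Slc2a5 was not even across wildtype microglia-like cells. When these were put in 4 bins of equal cell number by the summed level of 10 homeostatic microglia genes, such as P2ry12 and Cx3cr1, Slc2a5 stood at 3.29, 11.6, 24.7 and 60.3 CPM from the lowest bin to the highest (15, 56, 103 and 172 UMIs). By 10 genes of lipid-handling macrophages, such as Gpnmb, Spp1 and Apoe, Slc2a5 ran the other way, at 45.1, 28.5, 10.9 and 6.08 CPM. The intervals of the end bins did not meet in either series, nor with each cell thinned to 2000 UMIs. By inflammatory genes Slc2a5 was 11.8 CPM in the lowest bin and 31.5 CPM in the highest, but after thinning these intervals overlapped. By hypoxia genes the end bins had 18.8 and 21.7 CPM, with overlapping intervals. The homeostatic series is not free of the gate, since 5 of its 10 genes are also in the microglia panel: Slc2a5 was at 3.14 CPM in the 534 wildtype cells with 10 to 20 panel UMIs per 10000, the range just inside the gate. It was 111 CPM in the 128 cells above 80. Slc2a5 was 16.3 CPM [13.1 to 19.9] in male and 24.6 CPM [21.0 to 28.7] in female wildtype microglia-like cells, and 0 UMIs were found in either sex in Glut5 KO.

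**Figure D1:**
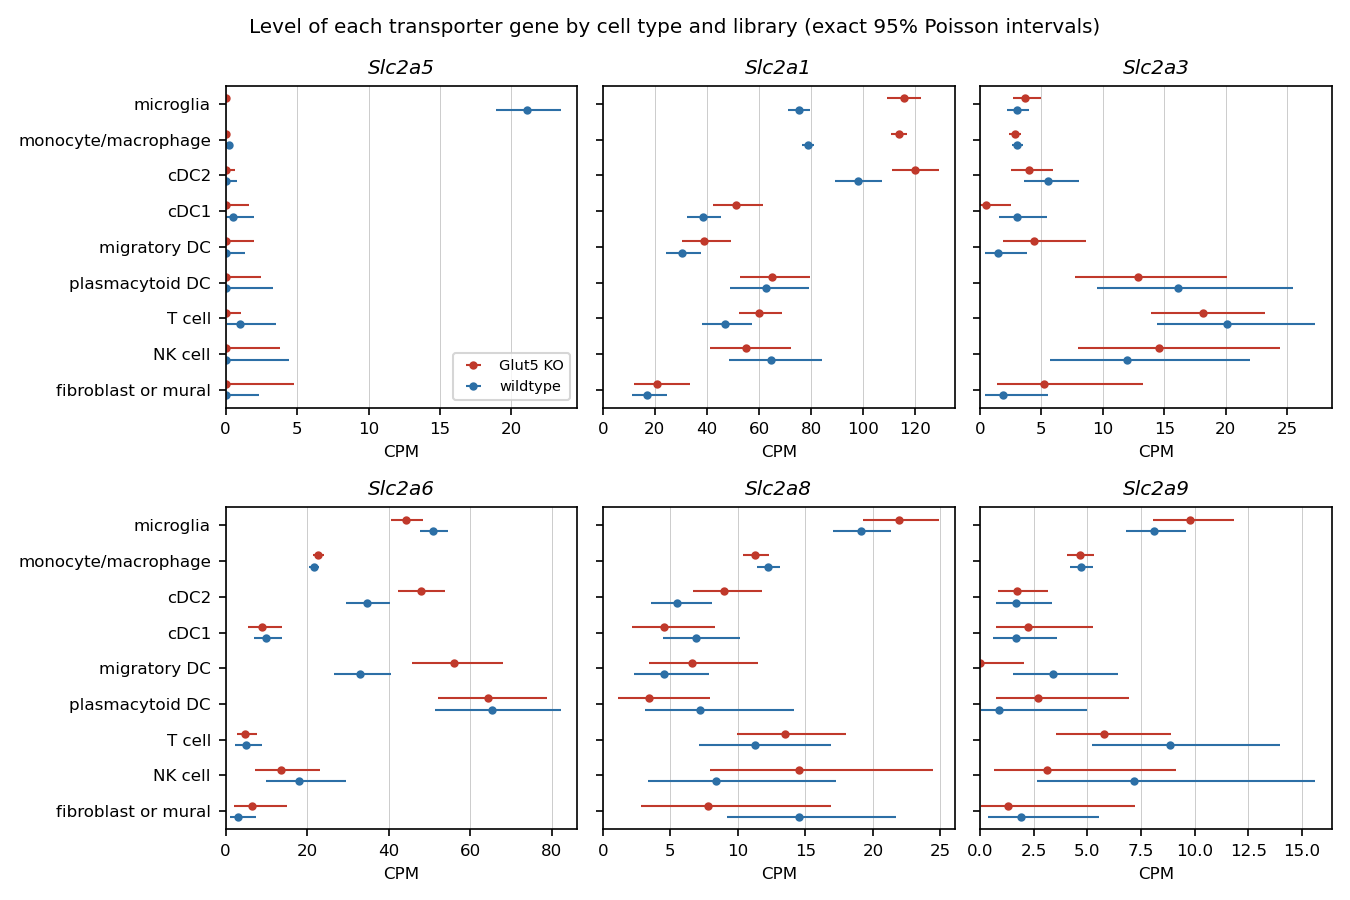
Level of each gene (CPM, horizontal) in the 9 classes that had 50 or more cells in each library, Glut5 KO in red above wildtype in blue, with exact 95% Poisson intervals of counting error. Slc2a5 stands out in wildtype microglia-like cells at 21.1 CPM, and Slc2a1 is higher in Glut5 KO in 8 of the 9 classes.

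Slc2a1, the main glucose carrier of most immune cells, had the highest UMI count of the 6 genes in both libraries and was higher in the Glut5 KO library. Microglia-like cells had 116 CPM [109 to 122] in Glut5 KO (1285 UMIs) and 75.4 CPM in wildtype (1236 UMIs), a log2 ratio of 0.62 [0.50 to 0.73]. Monocyte/macrophage-like cells had 114 CPM [111 to 117] in Glut5 KO (5401 UMIs) and 78.8 CPM in wildtype (4909 UMIs), a log2 ratio of 0.53 [0.47 to 0.59]. The intervals of the libraries did not overlap in either class, and the median log2 ratio over all measured genes was near zero, at −0.06 in microglia-like and −0.05 in monocyte/macrophage-like cells. With cells thinned to 1000 UMIs, 9.48% of microglia-like cells had a Slc2a1 UMI in Glut5 KO and 6.40% in wildtype. The shares of monocyte/macrophage-like cells were 12.1% and 8.96%, and those of migratory dendritic cells 3.08% and 2.84%.

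Of the 6 genes, 1 (Slc2a1) was at least 1.5-fold higher in Glut5 KO microglia-like cells, where 4.23% of 12237 genes with at least 20 UMIs were, and 1 (Slc2a5, the targeted gene) was at least 1.5-fold lower, where 8.31% were. In monocyte/macrophage-like cells, none of the 5 genes with at least 20 UMIs reached 1.5-fold in either direction, against 7.71% of 14204 genes that were higher and 6.97% that were lower. Over the genes with at least 20 UMIs, Slc2a1 held rank 479 of 12237 from the top in microglia-like cells and 1209 of 14204 in monocyte/macrophage-like cells. Among genes with at least 500 UMIs over both libraries, it held rank 39 of 5876 and 357 of 9302. In that set 0.868% and 3.24% of genes were at least 1.5-fold higher.

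Among the 9 classes that had 50 or more cells in each library, the order of Slc2a1 was similar in both. In Glut5 KO, type 2 conventional dendritic cells (cDC2, 120 CPM), microglia-like and monocyte/macrophage-like cells led with overlapping intervals, and plasmacytoid dendritic cells followed at 65.1 CPM. In wildtype, cDC2 had 97.8 CPM, with an interval above those of the monocyte/macrophage-like and microglia-like cells, and plasmacytoid dendritic cells 62.7 CPM. The cDC2 ratio was 0.29 [0.12 to 0.47] and that of type 1 conventional dendritic cells (cDC1) 0.42 [0.05 to 0.79], from 51.3 CPM in Glut5 KO and 38.3 CPM in wildtype. Of these 9 classes, 8 were higher in Glut5 KO and 4 had an interval above 0. NK cells were the exception, with 55.1 CPM in Glut5 KO and 64.6 CPM in wildtype (−0.23 [−0.80 to 0.35]). Endothelial cells, which line the vessels and use GLUT1 to pass glucose into the brain, should be lacking after bead selection. Only 3 and 5 such cells were gated, with 67 and 68 Slc2a1 UMIs, and their 4129 CPM in Glut5 KO and 1185 CPM in wildtype stood above every class in the order given. The summed endothelial panel was 16.7 and 8.74 CPM in monocyte/macrophage-like cells and 5.21 and 3.60 CPM in microglia-like cells. Its part in the Slc2a1 difference was not tested.

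**Figure D2:**
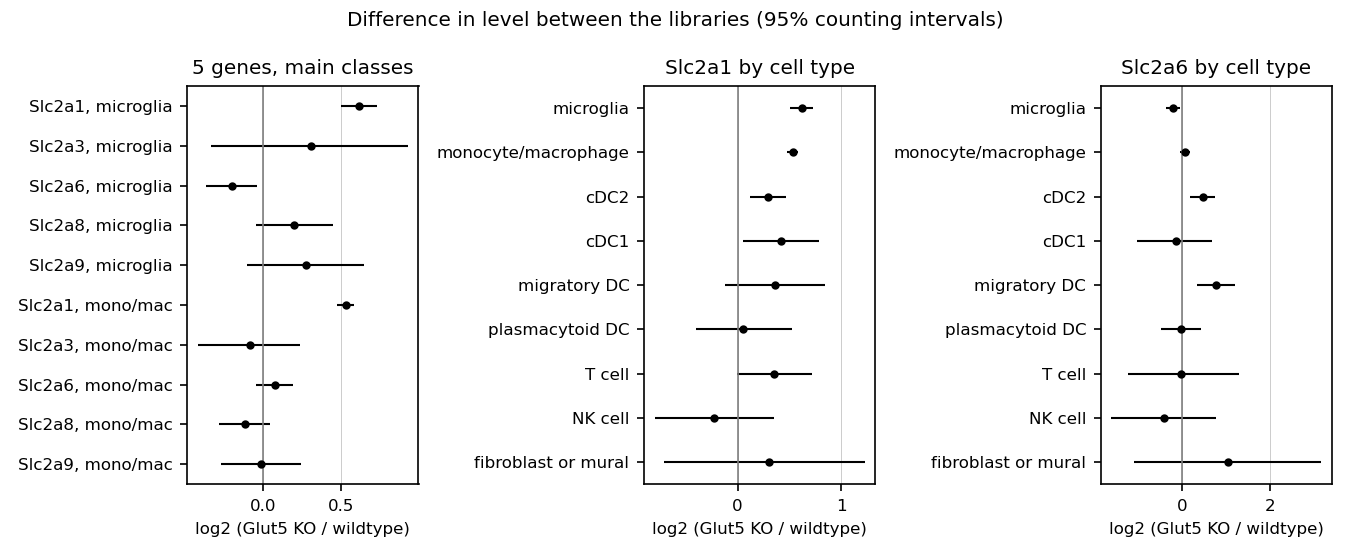
Log2 ratio of Glut5 KO over wildtype (horizontal) with 95% counting intervals, for the 5 genes other than Slc2a5 in the main classes (left, mono/mac for monocyte/macrophage) and for Slc2a1 and Slc2a6 in 9 cell types. Slc2a1 lies right of 0 in microglia at 0.62 and in monocyte/macrophage-like cells at 0.53, while Slc2a6 lies at −0.20 in microglia and 0.76 in migratory dendritic cells.

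Slc2a1 tracked the hypoxia programme, a list of 15 oxygen-responsive genes such as Vegfa, Egln3 and Hilpda that holds no carrier. In monocyte/macrophage-like cells it stood at 60.0, 74.4, 122 and 231 CPM from the lowest hypoxia bin to the highest in Glut5 KO, and at 48.8, 53.8, 79.2 and 156 CPM in wildtype. In microglia-like cells Slc2a1 stood at 68.5, 96.3, 117 and 167 CPM in Glut5 KO and at 55.5, 60.4, 71.8 and 111 CPM in wildtype. Slc2a1 was higher in Glut5 KO in every one of these bins, each cut within its own library, though the intervals of the lowest microglia bin overlapped. The bins also differ in depth: the lowest hypoxia bin of microglia-like cells had medians of 2644 UMIs in Glut5 KO and 5222 in wildtype, against 6293 and 9577 in the highest. After thinning to 2000 UMIs, Slc2a1 was 216 CPM in the highest and 87.7 CPM in the lowest bin of Glut5 KO monocyte/macrophage-like cells, and 169 and 66.3 CPM in wildtype.

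Other programmes were less alike between the classes. In monocyte/macrophage-like cells Slc2a1 was lower toward the top of the lipid-handling programme, at 155 CPM in the lowest bin and 72.8 CPM in the highest in Glut5 KO, and at 118 and 61.9 CPM in wildtype. In microglia-like cells the same programme went with more Slc2a1 in Glut5 KO (83.4 CPM lowest, 136 CPM highest), while the wildtype bins had 87.3 and 87.1 CPM. The difference between the libraries in this slope was not tested. Monocyte/macrophage-like cells without a UMI of 12 cell division genes had 152 CPM of Slc2a1 in Glut5 KO and 117 CPM in wildtype, and the bin with the most such UMIs had 71.6 and 54.3 CPM. All 12 division genes were at least 1.5-fold lower in Glut5 KO in both classes. Of all measured genes, 8.31% were lower in microglia-like and 6.97% in monocyte/macrophage-like cells. The part of the division genes in the Slc2a1 difference was not tested.

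**Figure D3:**
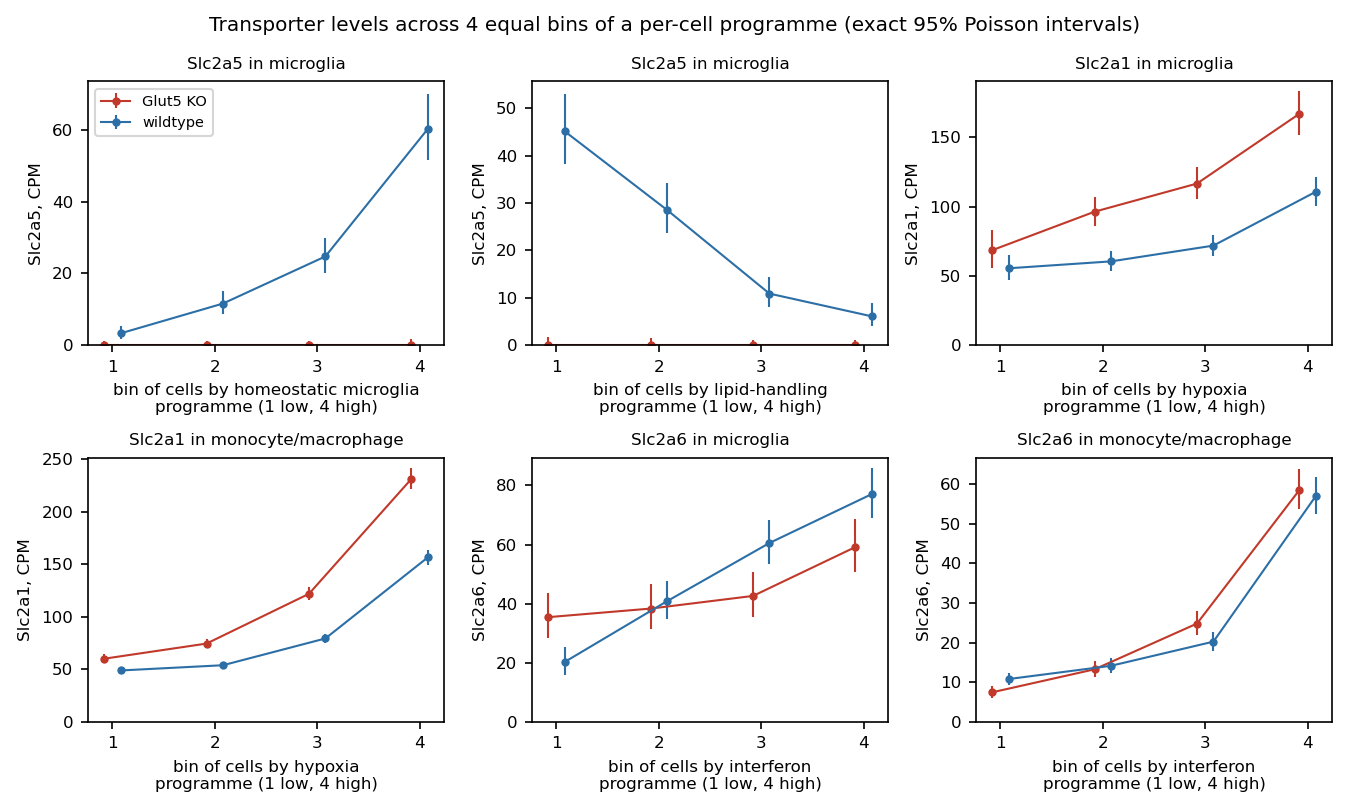
Level (CPM, vertical) of a gene in 4 equal bins of the cells of a class, from low to high level of a gene programme, in Glut5 KO (red) and wildtype (blue), with exact 95% Poisson intervals. Slc2a5 in wildtype microglia-like cells stands at 60.3 CPM in the top bin of the homeostatic programme and at 6.08 CPM in that of the lipid-handling programme, and Slc2a1 and Slc2a6 are highest in the top bins of the hypoxia and interferon programmes.

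The Slc2a1 difference was not spread evenly over monocyte/macrophage-like cells. These cells were also split by clusters built without the 6 genes. The highest Slc2a1 was in cluster 2, led by Ly6i, Hp, Clec4e and Vegfa, with 241 CPM [232 to 251] in Glut5 KO (1748 cells) and 174 CPM [165 to 184] in wildtype (1361 cells), a ratio of 0.47 [0.37 to 0.56]. Cluster 5, led by interferon-induced genes such as Rsad2 and Cxcl10, had 173 and 159 CPM (0.12 [−0.07 to 0.31]). Cluster 1, led by the macrophage genes Mrc1 and Pf4, had 42.6 and 41.9 CPM (0.03). Slc2a1 was higher in Glut5 KO in 10 of 11 clusters, with an interval above 0 in 4 (clusters 2, 6, 15 and 18, the last with 20 and 3 UMIs). Giving both libraries the wildtype mix of clusters, a weighting chosen after the data were seen, left 93.9 CPM of Slc2a1 in Glut5 KO against 79.2 CPM in wildtype, a log2 ratio of 0.25 where the plain sum gave 0.53. In microglia-like cells the weighting could use 2 clusters, whose cells gave 0.47 with it and 0.51 by the plain sum. Cluster 6 held 62.3% of the class in Glut5 KO and 55.8% in wildtype, and cluster 18 held 19.1% and 22.0%. The Slc2a1 ratio was 0.50 [0.37 to 0.63] in cluster 6 and −0.23 [−1.11 to 0.55] in cluster 18. The remaining microglia-like cells were left out of the weighting.

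Summed over clusters, the Slc2a1 ratio was larger in male than in female monocyte/macrophage-like cells, but not in every cluster. Male monocyte/macrophage-like cells had 142 CPM in Glut5 KO and 78.6 CPM in wildtype (0.86 [0.76 to 0.95]), and female cells 71.6 and 58.1 CPM (0.30 [0.18 to 0.42]). In cluster 2 the male cells had 282 CPM in Glut5 KO and 162 CPM in wildtype (0.79 [0.64 to 0.95]), whereas the female cells had 139 and 160 CPM (−0.20 [−0.50 to 0.11]). Female cells of cluster 4, led by the monocyte genes Chil3, Fn1 and Ccr2, had less Slc2a1 in Glut5 KO, with 109 CPM against 160 CPM in wildtype (−0.55 [−0.96 to −0.15]). Cluster 9 went the other way, with 0.51 [0.17 to 0.86] in female and 0.07 [−0.30 to 0.41] in male cells, and cluster 1 had 0.08 in female and −0.06 in male cells. In microglia-like cells both sexes had more Slc2a1 in Glut5 KO, with 129 against 90.3 CPM in male cells (0.52 [0.32 to 0.71]) and 103 against 67.4 CPM in female cells (0.61 [0.43 to 0.79]). Cells of a sex may come from a single animal, so sex and animal cannot be told apart.

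**Figure D4:**
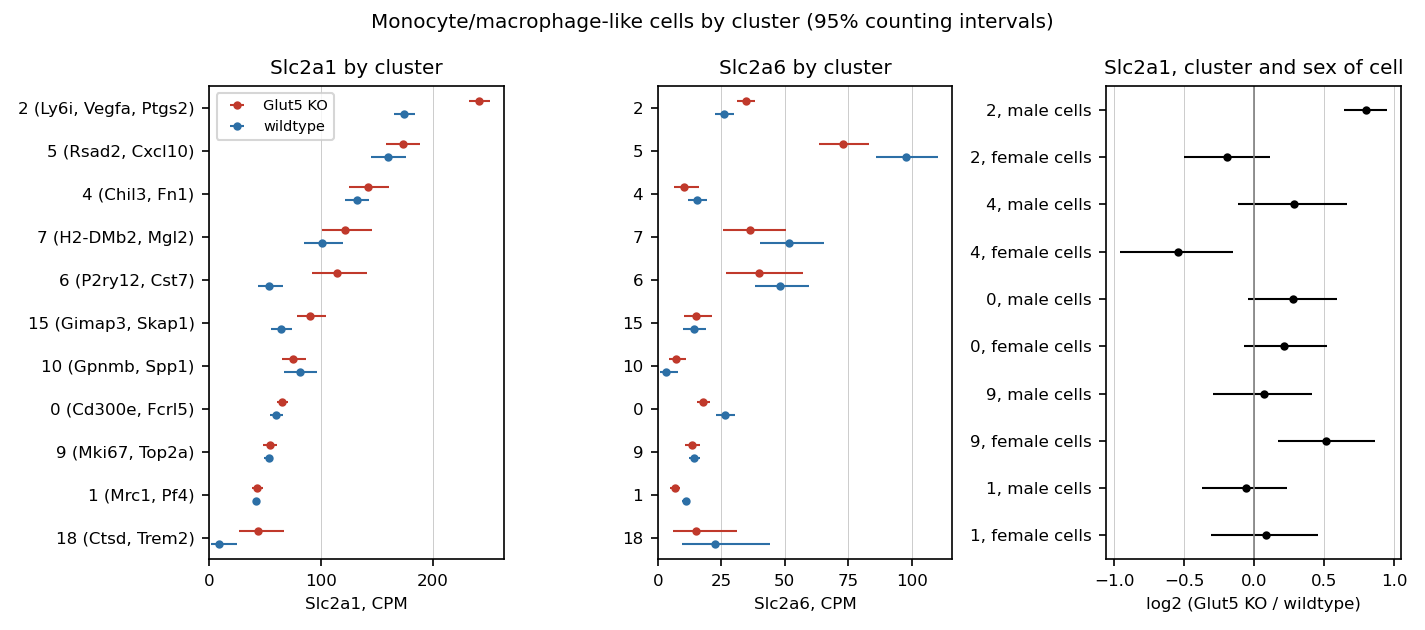
Slc2a1 and Slc2a6 level (CPM) by cluster of monocyte/macrophage-like cells, Glut5 KO in red above wildtype in blue, and the log2 ratio of Slc2a1 in male and female cells of 5 clusters, all with 95% counting intervals. The libraries stand well apart in cluster 2, at 241 and 174 CPM of Slc2a1, and that gap is seen in male cells (0.79) and not in female cells (−0.20).

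Slc2a3 (chr6:122727809-122801640, minus strand), whose product has a high affinity for glucose and serves neurons and many leukocytes, had its highest levels in small classes and lymphocytes, while monocyte/macrophage-like cells held 25.9% of its UMIs in Glut5 KO and 37.6% in wildtype. Neutrophils had 138 CPM in Glut5 KO (13 UMIs in 64 cells) and 216 CPM in wildtype (3 UMIs in 9 cells), and mast cells or basophils 28.8 and 18.8 CPM (4 and 2 UMIs). T cells had 18.1 CPM in Glut5 KO and 20.1 CPM in wildtype, NK cells 14 and 10 UMIs, and plasmacytoid dendritic cells 12.9 and 16.1 CPM. The intervals of these 3 types overlapped one another, and within T cells the CD8 cells had 31.4 and 26.0 CPM. Slc2a3 was low in microglia-like cells, at 3.69 and 2.99 CPM (0.31 [−0.33 to 0.93]), and in monocyte/macrophage-like cells, with 134 UMIs in Glut5 KO and 187 in wildtype (−0.09 [−0.42 to 0.24]). The direction in the monocyte/macrophage-like class turned with the setting, to 1.27 with stricter gates (18 and 7 UMIs) and 0.40 as a mean over cells. In cDC1 there was 1 Slc2a3 UMI in Glut5 KO and 11 in wildtype. Summed over all kept cells Slc2a3 was 5.34 CPM in Glut5 KO and 4.29 CPM in wildtype (0.32 [0.14 to 0.50]), while no named class of at least 50 cells in both libraries had an interval clear of 0. Cells that met no gate did, at 7.95 and 4.71 CPM (0.75 [0.18 to 1.35]). T cells, with their higher level, held 3.59% of all UMIs in Glut5 KO and 1.76% in wildtype, and the part of this mix in the sum was not tested.

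Slc2a6 (chr2:27021363-27027998, minus strand), a carrier of lysosomal membranes linked to inflammatory macrophages, showed ratios of both signs. Plasmacytoid dendritic cells had 64.4 CPM in Glut5 KO and 65.4 CPM in wildtype. Migratory dendritic cells had 56.0 CPM in Glut5 KO (102 UMIs) and 33.0 CPM in wildtype (88 UMIs), a log2 ratio of 0.76 [0.34 to 1.19], and cDC2 had 47.8 and 34.6 CPM (0.47 [0.18 to 0.76]). Microglia-like cells had 44.3 CPM in Glut5 KO (493 UMIs) and 51.0 CPM in wildtype (836 UMIs), a ratio of −0.20 [−0.37 to −0.04]. Monocyte/macrophage-like cells had 22.8 and 21.6 CPM (0.07 [−0.04 to 0.19]). Of 8 classes with at least 20 UMIs, 2 had an interval above 0 and 1 below it. Thinned to 1000 UMIs, 7.49% [4.42 to 11.7] of migratory dendritic cells had a Slc2a6 UMI in Glut5 KO and 2.84% [1.31 to 5.32] in wildtype. In cDC2 the ratio was 0.82 [0.26 to 1.38] in male cells and −0.23 [−0.68 to 0.25] in female cells, and in microglia-like cells it was −0.40 [−0.70 to −0.11] in male and −0.01 [−0.25 to 0.24] in female cells.

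Slc2a6 was higher in cells with more of the interferon programme, 12 genes such as Isg15 and Rsad2. From the lowest bin to the highest, monocyte/macrophage-like cells had 7.42, 13.2, 24.8 and 58.6 CPM of Slc2a6 in Glut5 KO and 10.8, 14.1, 20.2 and 57.0 CPM in wildtype. Microglia-like cells had 35.4, 38.3, 42.6 and 59.2 CPM in Glut5 KO and 20.2, 40.8, 60.5 and 77.1 CPM in wildtype. The highest bin was above the lowest in both classes of both libraries, also after thinning to 2000 UMIs. All 12 interferon genes were at least 1.5-fold higher in Glut5 KO monocyte/macrophage-like cells, with a median of 0.83, against 7.71% of all measured genes. In microglia-like cells 1 of the 12 was higher and 1 lower, with a median of 0.11. There 4.23% of all measured genes were higher and 8.31% lower. The part of the interferon genes in the Slc2a6 ratio was not tested. Within clusters of monocyte/macrophage-like cells Slc2a6 was lower in Glut5 KO in 7 of the 10 clusters with enough UMIs. The interval was below 0 in 3 of the 10 and above 0 in 1. The interferon-led cluster 5 had 72.9 CPM in Glut5 KO and 97.5 CPM in wildtype (−0.42 [−0.69 to −0.15]). Cluster 2 went the other way, with 34.6 and 26.1 CPM (0.41 [0.16 to 0.66]). With the wildtype mix of clusters the ratio of Slc2a6 was −0.23, against 0.07 for the plain sum.

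Slc2a8 (chr2:32972990-32982083, minus strand), whose product is kept on internal membranes, was highest in microglia-like cells among the classes that had 50 or more cells in each library. These had 21.9 CPM in Glut5 KO and 19.1 CPM in wildtype (0.20 [−0.05 to 0.45]), and monocyte/macrophage-like cells had 11.3 and 12.3 CPM (−0.12 [−0.28 to 0.04]). Among these classes, the microglia-like interval overlapped that of NK cells in both libraries and that of fibroblast or mural cells in wildtype. Monocyte/macrophage-like cells at the macrophage end of the marker range had 17.5 CPM of Slc2a8 in Glut5 KO and 15.2 CPM in wildtype, and those at the monocyte end 6.14 and 7.53 CPM. Its course through the programmes was opposite to that of Slc2a6 in this class. Along the interferon programme Slc2a8 was 17.2 CPM in the lowest and 5.84 CPM in the highest bin of Glut5 KO cells, and 14.9 and 6.36 CPM in wildtype. Along the lipid-handling programme it was 7.09 CPM in the lowest and 16.7 CPM in the highest bin in Glut5 KO, and 9.16 and 13.8 CPM in wildtype. No class taken whole had a ratio whose interval was clear of 0. By sex, microglia-like cells had 0.54 [0.05 to 1.02] in male and −0.0045 [−0.37 to 0.35] in female cells. Monocyte/macrophage-like cells had 0.07 [−0.21 to 0.33] in male and −0.33 [−0.60 to −0.06] in female cells. Of the clusters of that class with enough UMIs, 1 had an interval above 0 (cluster 1, 0.33 [0.01 to 0.64]) and 0 had one below it.

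Slc2a9 (chr5:38349273-38503143, minus strand), the urate carrier, was at most 9.80 CPM in the 9 classes that had 50 or more cells in each library. Microglia-like cells had 9.80 CPM in Glut5 KO and 8.11 CPM in wildtype (0.27 [−0.11 to 0.65]), monocyte/macrophage-like cells 4.65 and 4.70 CPM (−0.01 [−0.27 to 0.24]) and T cells 5.76 and 8.83 CPM (−0.62 [−1.61 to 0.39]). Within T cells, those with Foxp3, the regulatory T cell factor, had 3 UMIs in 84 cells in Glut5 KO and 8 UMIs in 30 cells in wildtype (−2.53 [−5.21 to −0.61]). CD4 T cells without Foxp3 went the other way, with 8 and 1 UMIs (1.06 [−1.34 to 7.03]). CD8 T cells had 6 and 7 UMIs (−0.64 [−2.50 to 1.14]). Migratory dendritic cells had 0 UMIs in Glut5 KO and 9 in wildtype. Around it, Xdh, which encodes the enzyme that makes urate, was 70.6 CPM in Glut5 KO and 39.4 CPM in wildtype monocyte/macrophage-like cells (0.84 [0.76 to 0.92]). It was the only 1 of 6 genes of urate and purine handling at least 1.5-fold higher there, and none was lower, against 7.71% and 6.97% of all measured genes. The other named genes were Pnp (0.27), Hprt (−0.20) and Ada (−0.34), with a list median of 0.10. In microglia-like cells none of the 6 was higher and 1, Ada, was lower (−0.69), against 4.23% and 8.31% of all measured genes, with Xdh at 0.37, Gda at 0.06, Abcg2 at −0.16 and a list median of −0.10.

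The other 6 family members were all but absent, with at most 32 UMIs in Glut5 KO and 21 in wildtype over all kept cells (Slc2a13). Among other sugar carriers, Slc50a1, the mammalian member of the SWEET family, had 61.7 CPM in Glut5 KO and 57.9 CPM in wildtype monocyte/macrophage-like cells. Of the 4 measured there, 1 was at least 1.5-fold higher, Slc5a2 with 12 and 9 UMIs, and the list median was 0.00. Of the 2 measured in microglia-like cells, Slc50a1 was at 0.05 and Slc45a4 at −0.09. Of 12 genes that move glucose carriers to and from the surface, none reached 1.5-fold in either class. Their medians were −0.03 in microglia-like and 0.08 in monocyte/macrophage-like cells. Of all measured genes, 4.23% were higher and 8.31% lower in microglia-like cells, and 7.71% and 6.97% in monocyte/macrophage-like cells. Counts among so few genes are too small to set apart from these shares. Txnip and Arrdc4, arrestin-domain proteins that draw GLUT1 inward, were the highest of them in monocyte/macrophage-like cells, at 0.35 [0.30 to 0.39] and 0.40 [0.32 to 0.49]. Txnip had 177 CPM in Glut5 KO and 139 CPM in wildtype. The lowest were Tbc1d4 (−0.35) and the retromer gene Vps35 (−0.26). In microglia-like cells the ends were Arrdc4 (0.26) and Tbc1d1 (0.12) against Vps29 (−0.30) and Arrdc3 (−0.15).

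The genes that put the imported sugar to use are few, so a count of 0 or 1 among them is near the shares over all genes (4.23% higher and 8.31% lower in microglia-like cells, 7.71% and 6.97% in monocyte/macrophage-like cells). Of 12 measured genes for the first steps of hexose use, such as phosphorylation by hexokinases, none reached 1.5-fold in either class, with medians of −0.01 in microglia-like and −0.14 in monocyte/macrophage-like cells. Hk1, a hexokinase, was 28.3 CPM in Glut5 KO and 20.7 CPM in wildtype monocyte/macrophage-like cells (0.45), followed by Hk3 (0.27). The polyol and fructose genes Akr1b3, an aldose reductase, and Tkfc, a triose kinase, were lowest there, at −0.50 and −0.56, and also in microglia-like cells, at −0.28 and −0.47, where Sord (0.20) and Khk (0.18), the fructose kinase, were highest. Of 18 glycolysis genes, 1 (Pfkm, −0.67, 27 and 64 UMIs) was at least 1.5-fold lower in microglia-like cells and none was higher, with a median of −0.12. None reached 1.5-fold in monocyte/macrophage-like cells, with a median of 0.09. The lactate carrier gene Slc16a3 (0.36) and Pfkfb3 (0.32) led in microglia-like cells and Hk1 and Tpi1 (0.39) in monocyte/macrophage-like cells, while Eno1 was low in both, at −0.48 and −0.36. Slc16a1, another lactate carrier gene, was at −0.15 in monocyte/macrophage-like cells.

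The hypoxia genes had 6 of 14 measured members at least 1.5-fold higher in Glut5 KO monocyte/macrophage-like cells and 1 lower, with a median of 0.40, where 7.71% of all genes were higher and 6.97% lower. Vegfa, the vessel growth factor, had 159 CPM in Glut5 KO and 99.8 CPM in wildtype (0.68 [0.63 to 0.72]). Egln3, an oxygen-sensing hydroxylase, was at 1.04 and Ndrg1 at 0.84, while P4ha2 was at −0.80 and Mxi1 at −0.12. In microglia-like cells 2 of 13 were higher and 1 lower, with a median of 0.22, where 4.23% of all genes were higher and 8.31% lower. Egln3 had 17.7 CPM in Glut5 KO and 7.26 CPM in wildtype there (1.29), Hilpda was at 0.61, Mxi1 at −0.06, and P4ha2 had 7 and 35 UMIs (−1.68).

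The genes most like each carrier were sought among 10061 genes by the correlation of their levels over cell types, 12 types in Glut5 KO and 9 in wildtype, and the lower of both correlations is given as a description. The types of a library share its depth and its free RNA. For Slc2a5, in wildtype alone, they were Igkv12-46 and Npnt (0.96), Csmd3 (0.94), Slc22a17 (0.93) and Tpbgl (0.92). Slc2a5 was at most 0.981 CPM in the wildtype types other than microglia-like cells, so these correlations rest on that class alone. Plasma cells (78 in Glut5 KO and 5 in wildtype) were not among the 9 wildtype types. The match of Igkv12-46, an immunoglobulin gene, therefore leaves them out. For Slc2a1 they were Morc3, Treml2, Ubl3, Tnfaip8l2 and Msn (0.88 to 0.89). For Slc2a3 they included Zfp831 at 0.89, 4932438A13Rik and Rdh12, down to Ing5 at 0.83. Slc2a6 was closest to Sbno2 at 0.86, then Tyrobp, Scamp2 and Tcn2, down to Gm5431 at 0.83. Slc2a8 was closest to Sumf2 at 0.90, then Suclg2, Bola2 and Tmem68, down to Slc35b2 at 0.85. Slc2a9 had looser matches, with Hprt at 0.77, then 4933406I18Rik, Vwa8 and Lyrm9, down to Rrp1 at 0.71.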

How the data were processed

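The authors deposited raw UMI counts of each gene in each barcode, per the file headers. The kit was 10x 5' v2 by the labels. Cell Ranger 3.1.0 and mm10 stand in the submitters' processing notes, and cellranger 7.0.1 in the matrix, per the file headers. Whether strand and introns were used in counting, and the annotation release, is not given in the sources used here. Slc2a1 overlaps the antisense genes Gm12867 (3 and 4 UMIs) and Gm12868 (23 and 16 UMIs in Glut5 KO and wildtype).

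Barcodes with at least 300 genes and under 10% mitochondrial UMIs were kept. A cell was gated into a class by the number of panel markers detected and their UMIs per 10000 (for microglia at least 3 of 7 markers and 10 UMIs). Cells meeting several gates were called mixed (809 in Glut5 KO and 672 in wildtype), and 2436 and 1719 met none. The monocyte/macrophage gate took only cells with under 10 microglia-panel UMIs per 10000. The microglia gate set no limit on monocyte/macrophage markers, so cells with markers of both could be called microglia-like and not mixed. The summed monocyte/macrophage panel was 2555 and 3147 CPM in microglia-like cells (Glut5 KO and wildtype), against 11030 and 11129 CPM in monocyte/macrophage-like cells. Just under the microglia limit, at 5 to 10 UMIs per 10000, lay 395 and 907 cells. Mixed cells were left out of every class and Scrublet was used only for an alternative. Log2 ratios have 0.5 added to each count, and their intervals are conditional exact binomial ones. Shares have Clopper-Pearson intervals. The ratio step was tested on simulated data. Clusters are Leiden clusters at resolution 1 on 30 principal components of 2000 variable genes. Programme bins are 4 groups of equal cell number, cut within a class and library (for division genes, tied cells with no UMI form a group). Gene locations are GENCODE's on GRCm38.

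Named beside the 6 genes are the 5 genes most like each (a match of Slc2a3 is not reported here), the 2 highest and 2 lowest of each list, and examples. Vegfa, the endothelial panel and the T cell subsets, clusters and sexes described were picked with their values known. The 6 genes, the lists and the gates were chosen with earlier results of these data known. Python 3.11.15, numpy 2.4.6, scipy 1.17.1, pandas 2.3.3 and scanpy 1.11.5 were used.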

Additional observations from a re-analysis of the deposited data

Results flagged for a closer look

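The Slc2a6 ratio between Glut5 KO and wildtype differed in sign between classes, with counting intervals that lay on opposite sides of 0. It was 0.76 in migratory dendritic cells and 0.47 in cDC2, and −0.20 in microglia-like cells. In male cells it was 0.82 in cDC2 and −0.40 in microglia-like cells. In female cells it was −0.23 and −0.01, with intervals that held 0 in both classes. With 1 library per genotype the difference between classes was not tested.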

How the results depend on the processing

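Values are log2 ratios of Glut5 KO over wildtype unless stated. Keeping all barcodes, asking for 1000 genes and under 5% mitochondrial UMIs, removing the top 8% of Scrublet scores, another size factor, and leaving out mitochondrial, ribosomal and the 50 highest genes moved no ratio of the 6 genes beyond its counting interval in either main class. Stricter gates gave Slc2a6 −0.54 in microglia-like cells, and in monocyte/macrophage-like cells Slc2a5 −0.033 (0 UMIs in both libraries), Slc2a1 0.20, Slc2a3 1.27, Slc2a8 0.073 and Slc2a9 −0.30. They gave levels of 36.2 CPM of Slc2a5 and 63.5 CPM of Slc2a6 in wildtype microglia-like cells, and 194 CPM of Slc2a1 in Glut5 KO monocyte/macrophage-like cells. Male cells alone gave Slc2a6 −0.40, Slc2a8 0.54 and Slc2a9 0.71 in microglia-like cells, and Slc2a1 0.86, Slc2a6 −0.13, Slc2a8 0.066 and Slc2a9 0.27 in monocyte/macrophage-like cells. Female cells alone gave Slc2a6 −0.0056 in microglia-like cells, and in the other class Slc2a1 0.30, Slc2a8 −0.33 and Slc2a9 −0.37. Taking out a free-RNA share, at most 11.8% in Glut5 KO and 25.5% in wildtype microglia-like cells, gave Slc2a1 0.86 there, and in monocyte/macrophage-like cells Slc2a5 0.39, Slc2a1 0.73, Slc2a6 0.35 and Slc2a8 0.10. The Slc2a5 sign turned because no UMI was left in either library. Cell types from clusters gave Slc2a6 0.20 in monocyte/macrophage-like cells and 18.1 CPM of Slc2a5 in wildtype microglia-like cells. The mean over cells gave Slc2a1 0.47 and Slc2a3 0.40 in monocyte/macrophage-like cells. The wildtype mix of clusters gave Slc2a1 0.47 in microglia-like cells (2 clusters, whose cells gave 0.51 by the plain sum), and Slc2a1 0.25, Slc2a6 −0.23 and Slc2a8 0.11 in monocyte/macrophage-like cells. The share of wildtype microglia-like cells with Slc2a5 was 4.95% after thinning to 2000 UMIs and 16.6% unthinned. In monocyte/macrophage-like cells thinned to 2000 UMIs, the highest over the lowest hypoxia bin gave 2.46 for Slc2a1 in Glut5 KO and 2.55 in wildtype (3.67 with bins cut over both libraries), and the interferon bins gave 6.60 for Slc2a6 in wildtype. Where no reason is given, the cause was not tested. No paired analysis was possible because each genotype is 1 library. Genes with few UMIs, Slc2a3 and Slc2a9 above all, limit what a ratio can show.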
